A study of Mus musculus with 2 samples.

Results

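Cycling C1q cells are cells of MC38 tumors that hold RNA of complement C1q, a product of tissue macrophages, together with RNA of 3 genes of dividing cells. They were selected on their measured counts of unique molecular identifiers (UMIs, the count of distinct RNA molecules captured). A cell had to have at least 500 genes detected, at most 20% of UMIs from mitochondrial genes, at least 0.1% of UMIs from C1qa, C1qb and C1qc, at least 3 UMIs from Mki67, Top2a and Birc5, and 0 UMIs from the T cell genes Cd3d, Cd3e and Cd3g. The rule found 543 cells in the untreated library and 122 in the MSA-2 library, 665 of 28002 cells that passed the gene and mitochondrial limits. C1q cells with fewer than 3 UMIs of the cycling genes numbered 3639 and 1458 and are called non-cycling here.

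The study asks how MSA-2, an agonist of the innate immune sensor STING, acts in tumors. MC38 is a mouse colon carcinoma line, and it was grown under the skin of C57BL/6 mice that were 6 to 8 weeks old. The MSA-2 group received 3 injections of MSA-2 into the tumor at intervals of 3 days, and the untreated group received the vehicle, saline with 10% DMSO. Tumors of 3 mice per group were taken on day 7 and pooled into 1 single-cell library per group. No altered allele or transgene is given for either group. Because animals were pooled, the spread between mice is unknown, and every comparison between the libraries rests on 1 library each. The untreated library held 197677764 UMIs in 14039 kept cells and the MSA-2 library 203718059 UMIs in 13963 kept cells, with medians of 8775 and 9706 UMIs per cell. The libraries shared 53 barcodes, and 0 barcodes were cycling C1q cells in both.

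C1q is the first component of the classical complement pathway, and in tissues macrophages make most of it. Tumor macrophages descend from blood monocytes or from resident cells, and a part of them divides within the tissue under signals through the receptor Csf1r. Mki67 encodes a coat protein of mitotic chromosomes, Top2a the topoisomerase that untangles replicated DNA, and Birc5 the survivin subunit of the complex that guides chromosome segregation, and all 3 peak in G2 phase and mitosis.

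Genes of G2 phase and mitosis are known to share promoter elements, so the promoters of the 3 cycling genes that chose the cells, and of the mitotic kinase gene Cdk1, are shown here. Each is the 250 bases before the gene's start in build GRCm38.p6 as RefSeq gives it, printed along the strand of the gene. The windows are chr7:135716380-135716629 on the minus strand for Mki67, chr11:99024190-99024439 on the minus strand for Top2a, chr11:117848987-117849236 on the plus strand for Birc5, and chr10:69352913-69353162 on the minus strand for Cdk1. Capitals mark matches on either strand to the homology region element of cell cycle genes TTTGAA, to the CCAAT box, or to the E2F sites TTTCGCGC and TTTGGCGC, and no matches overlap.
Mki67: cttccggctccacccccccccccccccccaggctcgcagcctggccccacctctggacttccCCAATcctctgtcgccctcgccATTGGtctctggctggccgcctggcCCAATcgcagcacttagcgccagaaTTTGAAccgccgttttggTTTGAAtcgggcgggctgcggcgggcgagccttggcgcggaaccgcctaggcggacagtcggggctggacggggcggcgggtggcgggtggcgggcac
Top2a: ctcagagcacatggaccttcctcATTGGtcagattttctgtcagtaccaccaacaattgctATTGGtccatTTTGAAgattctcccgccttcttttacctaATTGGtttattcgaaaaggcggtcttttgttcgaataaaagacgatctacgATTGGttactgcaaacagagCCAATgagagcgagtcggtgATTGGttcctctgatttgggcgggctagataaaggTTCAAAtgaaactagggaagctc
Birc5: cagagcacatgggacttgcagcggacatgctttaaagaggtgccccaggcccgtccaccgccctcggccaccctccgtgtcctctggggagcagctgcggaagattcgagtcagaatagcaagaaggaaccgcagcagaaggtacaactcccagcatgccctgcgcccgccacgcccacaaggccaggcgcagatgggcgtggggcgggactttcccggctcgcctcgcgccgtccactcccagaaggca
Cdk1: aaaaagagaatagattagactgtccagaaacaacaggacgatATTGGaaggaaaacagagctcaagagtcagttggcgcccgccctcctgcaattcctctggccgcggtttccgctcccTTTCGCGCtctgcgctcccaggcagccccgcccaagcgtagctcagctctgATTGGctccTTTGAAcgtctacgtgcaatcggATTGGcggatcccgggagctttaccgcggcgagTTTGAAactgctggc

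The homology element matched at 2 places in each of Mki67, Top2a and Cdk1 and the CCAAT box at 3, 6 and 3 places. Cdk1 had 1 match to the first E2F site, none of the 4 had the second, and Birc5 had no match to any of the motifs in its window. Among 32851 promoters of the same length, 16.0% held the homology element, 33.8% the CCAAT box, 0.256% the first E2F site and 0.417% the second. A match describes letters only and shows neither binding nor use of the site.

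Not all cycling C1q cells carried the RNA of a macrophage alone. A list of 18 genes of MC38 tumor cells was summed in each cell, and a cell was taken to carry tumor markers when this share of its UMIs reached 25% of the median of tumor-marked cells in its library. Those reference cells had at least 3 UMIs of Gng11, Krt8 and Krt18 and under 0.02% of C1q UMIs, and numbered 476 in the untreated library and 3120 in the MSA-2 library. The median kept cell held 0.0383% of C1q UMIs in the untreated library and 0.00676% in the MSA-2 library. The C1q limit was thus stricter on untreated cells, and the counts of reference cells do not measure tumor cell numbers. Tumor markers were present in 213 untreated cycling C1q cells (39.2%, 35.1% to 43.5%) and in 79 MSA-2 ones (64.8%, 55.6% to 73.2%). Among non-cycling C1q cells the shares were 21.5% and 33.5%. All ranges in parentheses are exact 95% intervals and cover counting error only.

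Scrublet, which scores each cell against artificial mixtures of pairs of cells, called 150 of the untreated cycling C1q cells doublets (27.6%, 23.9% to 31.6%) and 50 of the MSA-2 ones (41.0%, 32.2% to 50.3%). It called 5.03% and 4.18% of the non-cycling C1q cells and 5.02% and 4.08% of all kept cells. Most calls fell on cells with tumor markers, 147 of the 150 and 49 of the 50. A further 66 untreated and 30 MSA-2 cells carried tumor markers without a call. The label of cycling macrophages is therefore borne out by markers for part of the cells only, and in the MSA-2 library for fewer than carried tumor markers.

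**Figure D1:**
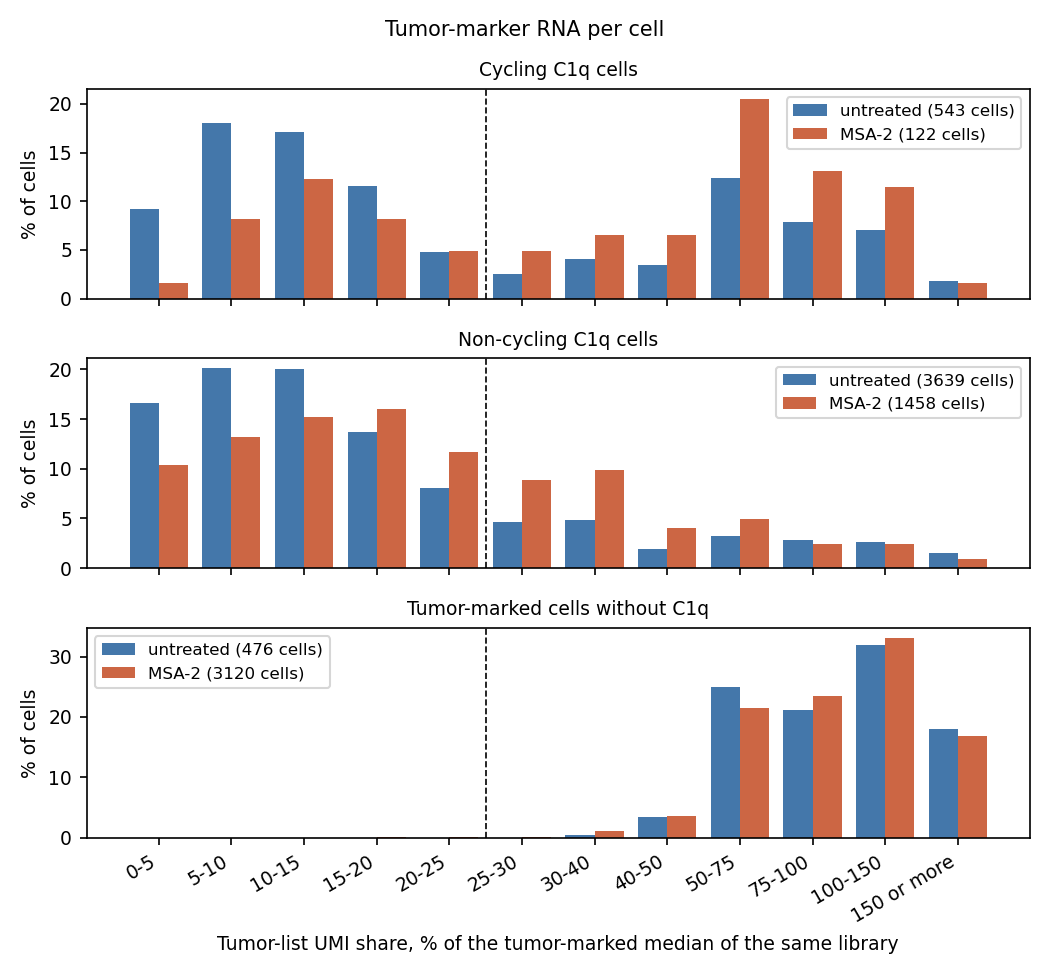
Tumor-list share of UMIs per cell (x axis, percent of the tumor-marked median of the same library) against the percent of cells (y axis), for untreated and MSA-2 libraries, with a dashed line at 25%. Cycling C1q cells at or above the line made up 39.2% of untreated and 64.8% of MSA-2 ones.

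Cycling cells with tumor markers also differed in depth and in C1q. Their median depth was 25260 UMIs in the untreated library and 19529 in the MSA-2 library, near the 22131.5 and 23362 of tumor-marked cells. Non-cycling C1q cells with tumor markers were shallow, with medians of 3935 and 3564 UMIs, so that their tumor-marker level can rest on few UMIs. Scrublet called 21.2% and 9.84% of them. Cycling C1q cells with neither tumor markers nor a Scrublet call, 327 untreated and 42 MSA-2 cells, had medians of 8667 and 6969.5 UMIs. The matching non-cycling cells, 2838 and 957, had 5364.5 and 4443 UMIs, so the cells past the threshold were deeper in both libraries. Median C1q shares of UMIs in cycling cells were 1.57% and 1.42% without tumor markers or a call, and 0.342% and 0.257% with tumor markers. These C1q shares belong to the measures that chose the cells and are given as a description.

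The cells without tumor markers or a call are the ones described below unless all cells of the rule are named. Over 24 genes of macrophage identity, which leave out the C1q genes, their summed level was 36414 CPM (the UMIs of a gene scaled to an equal total for each set of cells) in the untreated library and 41937 CPM in the MSA-2 library. In cycling cells with tumor markers the same sum was 10284 and 9812 CPM. The 18 tumor genes summed to 501 and 595 CPM in cells without tumor markers or a call, a level that the choice by this list holds low, with 8 and 10 of the genes at 0. They summed to 3413 and 3386 CPM in cells with tumor markers and to 4389 and 4522 CPM in tumor-marked cells. Of these genes, 5 and 4 were at 0 in cells with tumor markers, and 5 and 1 in tumor-marked cells. A list of 10 fibroblast genes summed to 2663 and 3586 CPM in cycling cells with tumor markers. In tumor-marked cells, whose limits leave out collagen-rich cells, it summed to 1415 and 2049.5 CPM.

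Around the limits of the rule all C1q cells are given, with and without tumor markers. With 2 UMIs of the cycling genes there were 323 untreated and 123 MSA-2 cells, and with exactly 3 UMIs there were 121 and 35, of which 38 and 15 carried tumor markers. A list of 44 other genes of G2 phase and mitosis stood at 1170.2 and 1099.9 CPM in the cells with 2 UMIs, at 1461 and 1338 CPM with 3 UMIs, and at 4977 and 4089.6 CPM with 10 or more, where 42.6% of 204 and 88.9% of 36 cells carried tumor markers. Around the C1q limit, 24 untreated and 18 MSA-2 cells with enough cycling UMIs had 0.08% to 0.1% of C1q UMIs, and 12 and 14 cells had 0.1% to 0.12%. Of these, 95.8% and 83.3% below the limit and 91.7% and 85.7% above it carried tumor markers. The same G2 and M list stood at 4097 and 3818 CPM below the C1q limit and at 1668 and 3843 CPM above it, so the few untreated cells differed across the limit. Of the cells without tumor markers or a call, 62 of 327 untreated and 4 of 42 MSA-2 cells had 2% or more of their UMIs from C1q genes, and another 214 and 21 had 1% to 2%.

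The genes of the rule themselves are given as a description. C1qa stood at 6557 CPM in the untreated library and 6283 CPM in the MSA-2 cycling cells, C1qb at 5364 and 4327 CPM, and C1qc at 3413 and 3113 CPM. Mki67 stood at 281 and 229 CPM, Top2a at 333 and 316 CPM, and Birc5 at 333 and 159.6 CPM. A Birc5 UMI was seen in 90.2% of untreated and 61.9% of MSA-2 cells, a Top2a UMI in 85.02% and 90.5%, and an Mki67 UMI in 79.5% and 73.8%. The median cell had 7 UMIs of the 3 genes in the untreated library and 4 in the MSA-2 library, and 64.8% (59.4% to 70.0%) against 33.3% (19.6% to 49.5%) had at least 5. MSA-2 cells thus sat closer to the threshold, with 45.2% of them at exactly 3 UMIs against 25.4% of the untreated cells.

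Fewer C1q cells passed the cycling threshold in the MSA-2 library. All C1q cells made up 29.8% of kept cells in the untreated library and 11.3% in the MSA-2 library. Of these, 12.98% (11.98% to 14.04%) and 7.72% (6.45% to 9.15%) were cycling, a log2 ratio (MSA-2 over untreated) of -0.75 (-1.05 to -0.46). Without tumor markers or Scrublet calls the shares were 10.3% (9.29% to 11.4%) of 3165 cells and 4.20% (3.05% to 5.64%) of 999 cells, a log2 ratio of -1.30 (-1.80 to -0.83). Among C1q cells with tumor markers they were 21.4% and 13.9%, a log2 ratio of -0.62 (-1.01 to -0.24).

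As a share of all kept cells, cycling C1q cells were 3.87% (3.55% to 4.20%) in the untreated library and 0.874% (0.726% to 1.04%) in the MSA-2 library, a log2 ratio of -2.15 (-2.44 to -1.86). Without tumor markers or Scrublet calls they were 2.33% and 0.301% of all kept cells, a log2 ratio of -2.95 (-3.45 to -2.49). This drop combines fewer C1q cells with a smaller cycling share among them. Seen from the dividing cells, 12.5% of the 4342 untreated cells with at least 3 cycling UMIs were C1q cells, and 2.26% of the 5390 such MSA-2 cells. A share of kept cells also moves with the number of other cells captured, which was not tested.

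**Figure D2:**
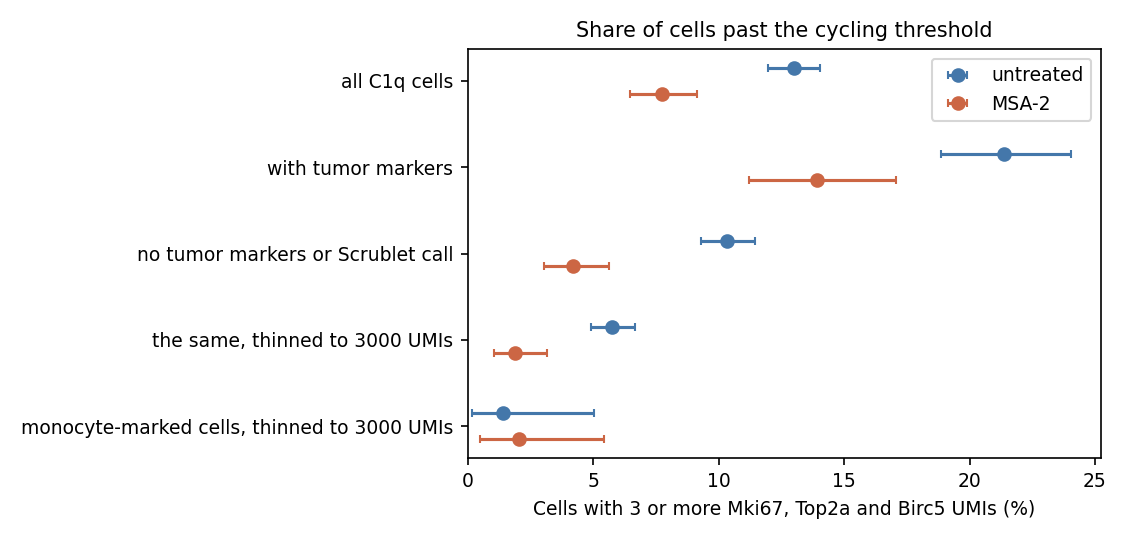
Percent of cells with 3 or more UMIs of Mki67, Top2a and Birc5 (x axis) for kinds of C1q cells and for monocyte-marked cells (y axis), with points for each library and bars for exact 95% intervals. Without tumor markers or Scrublet calls the shares were 10.3% in the untreated library and 4.20% in the MSA-2 library.

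The threshold counts UMIs and depends on depth, so cells were also compared after thinning to 3000 UMIs, as the average over all random draws. Thinning left out 390 of 3165 untreated and 252 of 999 MSA-2 C1q cells without tumor markers or a call, which were shallower. The cycling shares of the others were 5.73% (4.89% to 6.66%) and 1.89% (1.04% to 3.15%), a log2 ratio of -1.60 (-2.50 to -0.81), against 10.3% and 4.20% before thinning. At 5000 UMIs, with 1239 and 570 cells left out, they were 11.8% and 4.82%, a log2 ratio of -1.30 (-2.02 to -0.64). At each of these depths the cycling share was more than 2-fold lower in the MSA-2 library, but the intervals included smaller differences. Over all C1q cells of the rule, the log2 ratio was -1.10 (-1.68 to -0.56) at 3000 UMIs and -0.73 (-1.18 to -0.30) at 5000 UMIs.

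In droplet data free RNA gives UMIs of a gene to cells that do not express it, so cells with markers of Ly6c2-positive monocytes served as a comparison. These are not free of dividing cells, since single monocyte-marked cells held up to 27 cycling UMIs in the untreated library and 15 in the MSA-2 one, and both untreated ones past the threshold held 5 or more. At 3000 UMIs, 1.40% (0.16% to 5.02%) of 140 untreated and 2.02% (0.49% to 5.43%) of 171 MSA-2 monocyte-marked cells had at least 3 cycling UMIs, and 0.62% of 113 MSA-2 neutrophil-marked cells. Before thinning the monocyte-marked shares were 1.06% of 189 cells and 4.61% (2.23% to 8.31%) of 217 cells, at median depths of 3790 and 4064 UMIs against 5568 and 4494 UMIs for the C1q cells. The untreated C1q share at 3000 UMIs lay above the monocyte-marked value and outside its interval, although the intervals of both shares overlapped. The MSA-2 share of 1.89% lay inside the interval of the monocyte-marked cells. At 5000 UMIs the monocyte-marked shares were 5.55% (0.680% to 18.7%) of 36 cells and 5.87% (1.17% to 16.5%) of 49 cells, and the C1q shares of both libraries lay inside these intervals. A share of cycling C1q cells above that of monocyte-marked cells was thus not detectable by this count in the MSA-2 library, nor at 5000 UMIs in the untreated one. At least 1 cycling UMI was seen at 3000 UMIs in 29.7% and 27.1% of the C1q cells and in 25.1% and 26.3% of the monocyte-marked cells, with the cells of 3 or more included.

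A measure that the rule did not use is the UMI count of the 44 other G2 and M genes. Its level of 10 UMIs was chosen after the values were seen. At 3000 UMIs, 8.50% (7.49% to 9.60%) of untreated and 2.72% (1.67% to 4.15%) of MSA-2 C1q cells without tumor markers or a call reached it, a log2 ratio of -1.65 (-2.38 to -0.99). Before thinning the shares were 17.7% (16.4% to 19.1%) and 9.61% (7.85% to 11.6%), a log2 ratio of -0.88 (-1.21 to -0.57). Monocyte-marked cells reached the level in 1.46% (0.18% to 5.11%) and 0.84% (0.056% to 3.64%) of cells after thinning and in 3.70% (1.502% to 7.48%) and 3.69% (1.60% to 7.13%) before it. The intervals of C1q and monocyte-marked cells did not overlap in the untreated library, with or without thinning. In the MSA-2 library they overlapped after thinning and did not before it, when the C1q cells were also slightly deeper.

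Within the cycling C1q cells the same count differed between libraries. At 3000 UMIs, 66.9% (61.5% to 72.0%) of 322 untreated and 33.6% (19.3% to 50.5%) of 39 MSA-2 cells reached 10 UMIs of the list, with 5 and 3 shallower cells left out. Before thinning the shares were 84.7% of 327 and 54.8% of 42 cells. Of non-cycling cells, 0.836% and 1.01% reached the level after thinning and 10.0% and 7.63% before it. The cells were split by genes of the same phase, so nothing is read from this gap. The median cycling cell had 48.0 UMIs of the G2 and M list per 10000 in the untreated library and 15.5 in the MSA-2 library, and the median non-cycling cell 8.65 and 9.003.

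S phase genes differed less. The median cycling cell had 17.3 and 12.3 UMIs per 10000 of 38 S phase genes, against 6.16 and 6.62 in non-cycling cells. The G2 and M count exceeded the S count in 75.8% (70.8% to 80.4%) of untreated and 61.9% (45.6% to 76.4%) of MSA-2 cycling cells, and in 57.8% and 57.2% of non-cycling cells. The intervals of the cycling cells overlap between libraries. In cells with tumor markers the median G2 and M count was 26.6 and 25.1 per 10000, nearly equal in the libraries.

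**Figure D3:**
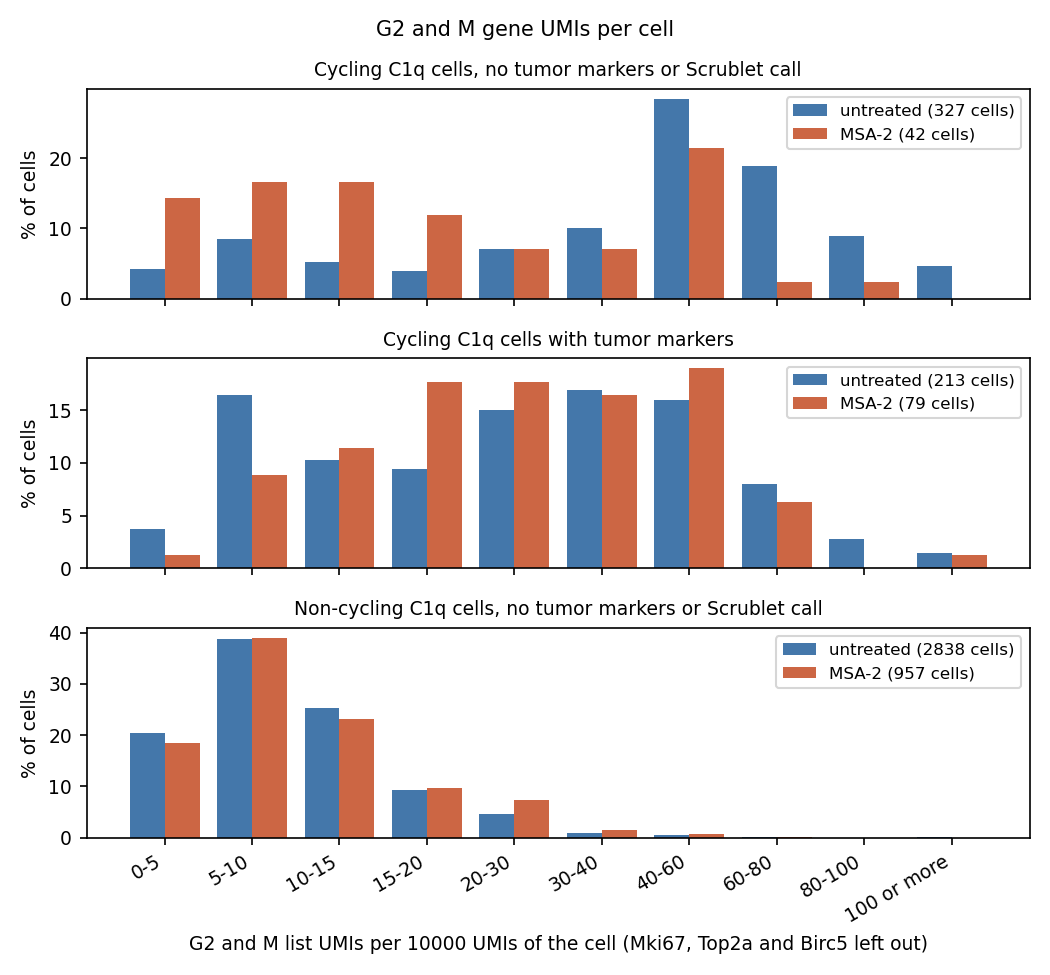
UMIs of 44 G2 and M genes per 10000 UMIs of the cell (x axis) against the percent of cells (y axis) for cycling cells without and with tumor markers and for non-cycling cells, in each library. The medians of the cycling cells without tumor markers or a call were 48.0 in the untreated library and 15.5 in the MSA-2 library.

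The levels of single genes were compared between libraries over summed UMIs, as the log2 of MSA-2 CPM over untreated CPM, each with 1 CPM added, and intervals are those of the ratio without it. A gene entered when it reached 50 CPM in a library and 50 UMIs over both, and a gene was called at a 2-fold difference. Over all cells of the rule, 177 of 3724 genes were at least 2-fold higher in MSA-2 cells (4.75%) and 113 at least 2-fold lower (3.03%). Without tumor markers or Scrublet calls, 282 of 3615 genes were higher (7.8%) and 254 lower (7.03%), with a median log2 ratio of -0.09 over all genes. The 42 MSA-2 cells held 300664 UMIs in all, against 2885013 in the 327 untreated cells, so a gene at 50 CPM in MSA-2 cells rests on few UMIs. The intervals of gene ratios take UMIs as independent, although UMIs of a gene can gather in 1 cell.

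Interferon-stimulated genes were higher in MSA-2 cycling cells as a group. All 36 genes of this list were tested, 36 were higher, 25 of them by at least 2-fold and 0 were lower, with a median of 1.32. Of all genes, 7.8% were at least 2-fold higher. Rsad2, the antiviral enzyme viperin, stood at 1271 CPM in untreated cells and 4261 CPM in MSA-2 cells (log2 ratio 1.74, 1.65 to 1.84). Ifih1, the RNA sensor MDA5, stood at 674 and 3499 CPM (2.38, 2.27 to 2.48). Ifitm3, a membrane protein, stood at 1862 and 3233 CPM (0.80, 0.70 to 0.89), and Oasl1, a regulator of translation, at 1087 and 2518 CPM (1.21, 1.10 to 1.33). Irf1 and Gbp2 lay near equality, at 0.07 and 0.04. In tumor-marked cells Rsad2 stood at 156 and 870.5 CPM, below the cycling C1q cells in both libraries.

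Genes of the STING pathway had a median nearer 0, with the interferon gene Ifnb1 as the 1 gene past 2-fold. Of 15 listed names, 13 are in the files and 6 were tested, with a median of 0.21. Ifnb1, the gene of interferon beta, stood at 102.6 CPM in untreated cells and 898 CPM in MSA-2 cycling cells, a log2 ratio of 3.12 (2.89 to 3.37), was seen in 23.9% and 85.7% of these cells, and stood at 2.28 and 16.9 CPM in tumor-marked cells. Tmem173, the gene of STING, stood at 52.3 and 56.5 CPM (0.11, -0.71 to 0.84), and its interval spans equality. In non-cycling C1q cells Ifnb1 had a log2 ratio of 3.21 and the interferon-stimulated list a median of 1.39, values of a like size.

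Inflammatory genes were also higher, 14 of 15 tested, with a median of 0.85. Of the 15, 6 were at least 2-fold higher and 1 lower, beside 7.8% and 7.03% of all genes. The chemokine Ccl4 stood at 7581 and 13144 CPM (0.79, 0.74 to 0.84), Ccl5, which draws T cells, at 889.8 and 6376 CPM (2.84, 2.76 to 2.93), and Cxcl10, a ligand of Cxcr3, at 2658 and 5365 CPM (1.01, 0.94 to 1.09). Il1b, the gene of interleukin 1 beta, went the other way, from 1788 to 289 CPM (-2.62, -2.95 to -2.32). In non-cycling cells the inflammatory median was 1.33, with 10 of 15 tested genes at least 2-fold higher.

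MHC class II genes, which present antigen to CD4 T cells, were lower in MSA-2 cycling cells. Of 8 listed genes, 6 were tested, and all 6 were at least 2-fold lower, beside 7.03% of all genes, with a median of -1.93. The invariant chain gene Cd74 stood at 6556 CPM in untreated cells and 1706 CPM in MSA-2 cells (-1.94, -2.07 to -1.82). H2-Eb1 stood at 4079 and 848 CPM (-2.26, -2.45 to -2.09) and H2-Ab1 at 3259 and 602 CPM (-2.43, -2.66 to -2.22). In non-cycling cells the median was -2.96, and over all cycling cells of the rule it was -3.02.

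G2 and M genes were lower in MSA-2 cycling cells. Of 44 listed genes, 31 were tested, of which 30 were lower, 13 by at least 2-fold, and 1 was higher, with a median of -0.92. Of all genes, 7.03% were at least 2-fold lower. A gene of the G2 and M list could enter through its level in the untreated cells alone, as Cenpf did, which favors lower genes in these counts. Without the low-count filter the median was -0.88. Hmgb2, a chromatin protein, stood at 1046 and 772 CPM (-0.44, -0.64 to -0.25). The ubiquitin enzyme gene Ube2c stood at 279 and 159.6 CPM (-0.80, -1.26 to -0.39, with 15 of its 48 MSA-2 UMIs in 1 cell). The condensin gene Smc4 stood at 213.5 and 89.8 CPM (-1.24, -1.86 to -0.69). The kinase subunit gene Cks2 stood at 195 and 106 CPM (-0.87, -1.44 to -0.36, with 8 of its 32 MSA-2 UMIs in 1 cell). The centromeric histone gene Cenpa stood at 177 and 76.5 CPM (-1.20, with 10 of its 23 MSA-2 UMIs in 1 cell). The mitotic kinase gene Cdk1 stood at 154 and 109.8 CPM (-0.49, -1.05 to 0.02), and its interval spans equality.

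This difference was smaller over all cells of the rule, where the G2 and M median was -0.31, and in cells with tumor markers, where it was -0.09. S phase genes had a median of -0.22 over 19 tested genes, 15 of them lower and 1 by at least 2-fold, beside 7.03% of all genes. Pcna, the sliding clamp of DNA polymerase, stood at 239.5 and 299 CPM (0.32, -0.01 to 0.64) and the dUTPase gene Dut at 134 and 79.8 CPM (-0.75, -1.41 to -0.16). Lower depth of the MSA-2 cells and a larger part of them near 3 cycling UMIs moved with the G2 and M difference. At 3000 UMIs 1.89% of MSA-2 C1q cells without tumor markers or a call passed the cycling threshold, beside 2.02% of monocyte-marked cells. The part of depth, of cells near the threshold and of free RNA in the difference was not tested.

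Macrophage identity genes lay on both sides of equality. All 24 were tested, with 16 higher and 8 lower. By at least 2-fold, 4 were higher and 0 lower, beside 7.8% and 7.03% of all genes. The list median of 0.23 was -0.06 with equal weight per cell. The lipoprotein gene Apoe, the most abundant, stood at 16468 and 18975 CPM (0.20, 0.17 to 0.24). Also abundant were the Fc receptor chain gene Fcer1g at 4015 and 3822 CPM (-0.07, -0.16 to 0.02) and the lysozyme gene Lyz2 at 3589 and 2983 CPM (-0.27, -0.37 to -0.17). The lysosomal protease gene Ctsb stood at 1494 and 3306 CPM (1.15, 1.05 to 1.25), and Ctss had 6347 UMIs in untreated and 674 in MSA-2 cells. The 4 genes past 2-fold were Ctsb, Ctsd (1.14), the receptor gene Mertk (2.55), with 35 of its 166 MSA-2 UMIs in 1 cell, and Siglec1 (2.19, with 46 and 23 UMIs). The lowest ratio was that of Cd14, a receptor for bacterial lipids, at 662 and 409 CPM (-0.69, -0.97 to -0.43).

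Growth signals were at least 2-fold lower in 3 of 10 tested genes and regulators of the cycle in 1 of 12, beside 7.03% of all genes. Of the 10 tested genes for growth receptors and transcription factors of macrophage renewal, 8 were lower. The list median was -0.48, and -0.45 in non-cycling cells. The transcription factor gene Klf2, the most abundant, stood at 1456 and 1041 CPM (-0.48, -0.65 to -0.32), and Csf1r at 243 and 163 CPM (-0.57, -1.02 to -0.16). The 3 past 2-fold were Csf2rb (-2.43), Spi1 at 432 and 196 CPM (-1.13, -1.54 to -0.76) and Klf4 at 389.9 and 96.5 CPM (-2.004, -2.60 to -1.49). Of the 12 tested inhibitors, G1 cyclins and exit genes, 10 were lower and 1 was at least 2-fold higher, with a median of -0.34. The exit gene Btg1 stood at 788 and 559 CPM (-0.50, -0.73 to -0.27), the CDK inhibitor gene Cdkn1a at 552 and 486 CPM (-0.18, -0.44 to 0.06) and Btg2, the 1 past 2-fold lower, at 551.5 and 206 CPM (-1.41, -1.81 to -1.05). Cyclin D3 (Ccnd3) had 106 and 25 UMIs, 36.7 and 83.2 CPM (1.16, 0.49 to 1.82).

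Lists of states gave mixed values. Of 17 tested genes of tumor macrophage states, 5 were at least 2-fold higher and 4 lower, beside 7.8% and 7.03% of all genes. Their median was 0.27. The matricellular gene Spp1 stood at 194 and 449 CPM (1.21), with 24.2% and 32.6% of its UMIs in 1 cell, and the growth factor gene Vegfa at 152 and 36.6 CPM (-2.03, -3.07 to -1.20). Mgl2, a lectin gene, had 41.6 CPM in untreated cells and was listed at 0 in MSA-2 cells. Of 11 tested apoptosis genes 0 passed 2-fold, with a median of -0.12, and the survival gene Mcl1 stood at 1059.96 and 609 CPM (-0.80, -1.02 to -0.58).

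The rule for named genes took the 10 highest and 10 lowest ratios in cells without tumor markers or a call. The highest were S100a9 (6.91), the protease inhibitor gene Slpi (6.12), the acute-phase gene Saa3 (5.29), Tnfsf15 (4.47), Il6 (4.01), Il27 (3.82), Slfn4 (3.80), Trim30c (3.64), Gbp5 (3.44) and Ifit3b (3.28). S100a9 had 2 UMIs in the untreated cells and 61 in the MSA-2 cells, 203 CPM, beside 271 CPM in MSA-2 tumor-marked cells, of which 407 of 3120 also passed the marker limit for neutrophils. Slpi at 525.5 CPM and Saa3 at 785 CPM lay above the 96.5 and 119 CPM of tumor-marked cells in the MSA-2 library, but 1 cell held 45.6% of the Slpi and 51.3% of the Saa3 UMIs, and they were seen in 23 and 28 of the 42 cells. Il27, which encodes a cytokine subunit, stood at 12.5 CPM in untreated cells and 189.6 CPM in MSA-2 cells (3.30 to 4.57), and the GTPase gene Gbp5 at 56.9 and 625 CPM (3.15 to 3.77).

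The lowest were Ighm, Pdgfb (-3.13), Kcnn4 (-2.93), Dapk1 (-2.74), Il1b (-2.62), Cenpf (-2.44), H2-Ab1 (-2.43), Csf2rb (-2.43), Rnf217 (-2.39) and Epb41 (-2.38). Ighm, an immunoglobulin gene, had 211 UMIs in untreated and 0 in MSA-2 cells, with an upper limit of -2.56 for the log2 ratio. Pdgfb, a growth factor gene, had 190 and 2 UMIs (-6.36 to -1.43), and the kinetochore gene Cenpf had 326 and 6 UMIs (-3.96 to -1.36). Csf2rb, the common chain of the GM-CSF receptor, had 272 and 5 UMIs (-4.14 to -1.26). Il1b and H2-Ab1 had 87 and 181 UMIs in the MSA-2 cells, and the other genes of this group had at most 6.

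Markers of other cells also moved between the libraries within these cells, and their part in the differences above was not tested. Neutrophil genes summed to 64.5 CPM in untreated cells and 502 CPM in MSA-2 cells, with 3 of 10 and 1 of 10 at 0, Ly6g at 0 in both, and Csf3r and S100a9 the most abundant. Only 2 of them were tested, S100a9 (6.91) and Csf3r (0.78, -0.04 to 1.55), of which 1 passed 2-fold, with a median of 3.84. In non-cycling cells the neutrophil median was 6.28 over 6 tested genes. The monocyte genes of the cycling cells summed to 980.2 and 2125 CPM, and 8 of 12 were tested. Of these, 3 were at least 2-fold higher and 3 lower, beside 7.8% and 7.03% of all genes. The median was 0.86, 1.07 with equal weight per cell, and 1.88 in non-cycling cells. Of the 3 lower ones, Chil3 had 370 untreated and 16 MSA-2 UMIs, with 347 of the untreated ones in 1 cell. Plac8 stood at 103 and 725 CPM (2.80, with 69 of its 218 MSA-2 UMIs in 1 cell), Ms4a4c, a membrane protein, at 348 and 675 CPM (0.96, 0.73 to 1.18), Ly6c2, which marks classical monocytes, at 24.96 and 206 CPM (3.00, with 25 of its 62 MSA-2 UMIs in 1 cell), and the fibronectin gene Fn1 at 192 and 69.8 CPM (-1.45, -2.16 to -0.83).

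Fibroblast genes summed to 396 and 599 CPM, led by Col3a1 and Dcn, with 0 and 1 of 10 at 0. Of these, 5 were tested and 2 were at least 2-fold higher, beside 7.8% of all genes. The median was 0.87, 0.30 without the low-count filter, and 1.58 in non-cycling cells. Tumor genes, at 501 and 595 CPM, had 5 tested with a median of 0.44, led by Anxa1 in the untreated library and Gng11 in the MSA-2 cells. T and NK genes summed to 35.0 and 9.98 CPM with 13 of 15 at 0 in MSA-2 cells, B and plasma cell genes to 36.7 and 23.3 CPM, dendritic cell genes to 63.4 and 26.6 CPM, endothelial genes to 26.7 and 46.6 CPM, and mast cell genes to 7.28 and 0 CPM. None of these 5 lists had a gene that could be tested. For scale, tumor-marked cells held 4389 and 4522 CPM of the tumor genes.

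**Figure D4:**
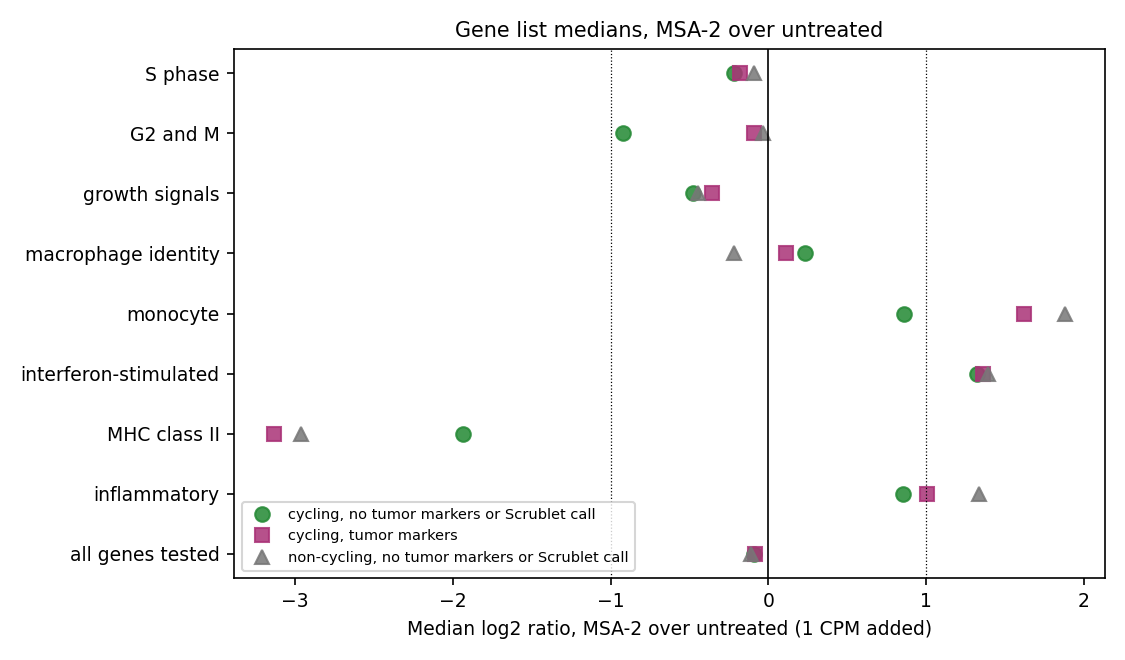
Median log2 ratio, MSA-2 over untreated (x axis, 1 CPM added) of gene lists (y axis) in cycling cells without and with tumor markers and in non-cycling cells, with dotted lines at 2-fold. Interferon-stimulated genes had medians of 1.32 in cycling and 1.39 in non-cycling cells and MHC class II genes -1.93 and -2.96.

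Cycling and non-cycling C1q cells were then compared within each library. The rule chose the cells by cycling genes, so higher levels of other cycle genes are a description, and nothing is read from the background shares beside them. In the untreated library 113 of 3397 genes were at least 2-fold higher in cycling cells (3.33%) and 6 lower (0.177%). In the MSA-2 library 139 of 3322 were higher (4.18%) and 104 lower (3.13%). Of 2907 genes tested in both libraries, 55 were higher in both, 1 was lower in both, and 0 passed 2-fold in opposite directions. Among the 55 were 21 of the 28 S or G2 and M list genes that were tested in both.

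G2 and M genes had a median log2 ratio of cycling over non-cycling of 2.96 in the untreated library, with 30 of 31 tested genes at least 2-fold higher. In the MSA-2 library the median was 1.92, with 13 of 16 at least 2-fold higher. S phase genes had medians of 1.64, with 16 of 18 at least 2-fold higher, and 1.45, with 10 of 13. The medians over all genes were 0.04 and 0.06, and TMM scaling shifted every ratio by -0.11 and -0.17. Cdk1 had ratios of 2.75 (2.60 to 3.02) and 2.13 (1.57 to 2.75), and Cenpf, in contrast, 3.30 (3.14 to 3.70) and 0.53 (-0.94 to 1.77). The CDK inhibitor gene Cdkn2c had 2.50 (2.29 to 2.96) and 3.17 (2.37 to 4.45), while Cdkn1a had -0.19 and -0.32. In the MSA-2 library Cenpf and Cdkn2c, with 6 and 15 UMIs in cycling cells, lay below the limit of 50 CPM and were not among the tested genes.

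By the rule for named genes, the highest ratios shared by both libraries were those of Hist1h2ae, Cdca3, Nusap1, Cenpp, Stmn1, Hist1h1b, Tyms, Pclaf, Hist1h2ap and Cenpe. Hist1h2ae and Hist1h1b encode histones, which are made in S phase, and had ratios of 4.18 and 3.44, and of 4.19 and 2.90. Stmn1, a regulator of microtubules, stood at 940.7 CPM in untreated cycling and 102.6 CPM in non-cycling cells, and at 482 and 58.6 CPM in the MSA-2 library. The thymidylate synthase gene Tyms had ratios of 2.74 and 2.94. All 10 are known from DNA replication, histones or cell division.

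The lowest shared ratios were those of Thbs1, Vegfa, Zdhhc14, Ypel3, Il1rn, Grasp, Pirb, Tigd2, Il1r2 and Cytip. Thbs1, the gene of thrombospondin, was the 1 gene lower by 2-fold in both libraries, at 162 CPM in cycling and 355 CPM in non-cycling untreated cells (-1.13, -1.27 to -0.998) and at 133 and 435 CPM in MSA-2 cells (-1.70), where 23 of its 40 UMIs were in 1 cycling cell. Vegfa had ratios of -0.85 and -1.77, and Il1rn, which encodes the antagonist of the interleukin 1 receptor, -0.82 and -0.77. The other 7 lay between -0.62 and -0.84 in the untreated library.

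Identity genes had a median of -0.22 in the untreated library, with 20 of 23 lower and 0 past 2-fold, and summed to 36414 CPM in cycling and 48643 CPM in non-cycling cells. In the MSA-2 library the median was 0.14, with 15 of 24 higher, 1 at least 2-fold higher and 2 lower, and sums of 41937 and 38166 CPM. With TMM scaling the medians were -0.33 and -0.03. Csf1r had ratios of -0.12 and -0.07. Cx3cr1, the fractalkine receptor, had 0.17 and 1.62 (1.22 to 2.02), and the platelet factor gene Pf4 had 0.04 and -1.26 (-1.49 to -1.05). Over all cells of the rule, which include C1q cells with tumor markers, the identity medians were -0.94 and -1.17.

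MHC class II genes stood on different sides in the libraries. All 6 tested genes were lower in cycling cells of the untreated library, with a median of -0.49, and all 6 were higher in the MSA-2 library, with a median of 0.45. Cd74 stood at 6556 CPM in cycling and 9473 CPM in non-cycling untreated cells (-0.53, -0.55 to -0.51), and at 1706 and 1269 CPM in MSA-2 cells (0.43, 0.29 to 0.56). With TMM scaling the medians were -0.60 and 0.28. In both libraries these values lay within 2-fold, and over all cells of the rule the medians were -1.13 and -1.19.

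Most tested monocyte genes were lower in cycling than in non-cycling cells of both libraries, and most neutrophil genes in the MSA-2 library, where alone they could be tested. Of 9 tested monocyte genes, all 9 were lower there, 2 by at least 2-fold, with a median of -0.74, and in the untreated library 6 of 7 were lower, 2 by at least 2-fold, and 1 was at least 2-fold higher, with a median of -0.33. Ly6c2 had ratios of -2.20 (-2.61 to -1.91) and -0.30 (-0.70 to 0.07). Of 6 tested neutrophil genes in the MSA-2 library, 5 were lower, 4 by at least 2-fold, and 1 was higher, with a median of -1.93. The 10 neutrophil genes summed to 502 CPM in cycling cells and 1982 CPM in non-cycling cells, and to 604 CPM in tumor-marked cells. A gene of either list could enter through the non-cycling cells alone, which favors lower genes in these counts. Without the low-count filter the MSA-2 medians were -1.75 for neutrophil and -0.75 for monocyte genes. The lectin gene Chil3, with ratios of 2.46 and -0.72, rests on 1 untreated cell that held 347 of the 370 UMIs of the untreated cycling cells.

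Other lists differed little or were lower in the MSA-2 library. Interferon-stimulated genes had medians of -0.02 and -0.16, inflammatory genes -0.04 and -0.57, growth signals -0.14 and -0.42, and tumor macrophage states -0.31 and -0.62. Inhibitors, G1 cyclins and exit genes, as 1 list, had -0.10 and -0.32, and apoptosis genes -0.04 and -0.10. Genes of the STING pathway had -0.24 and 0.09, which became -0.08 with TMM scaling.

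**Figure D5:**
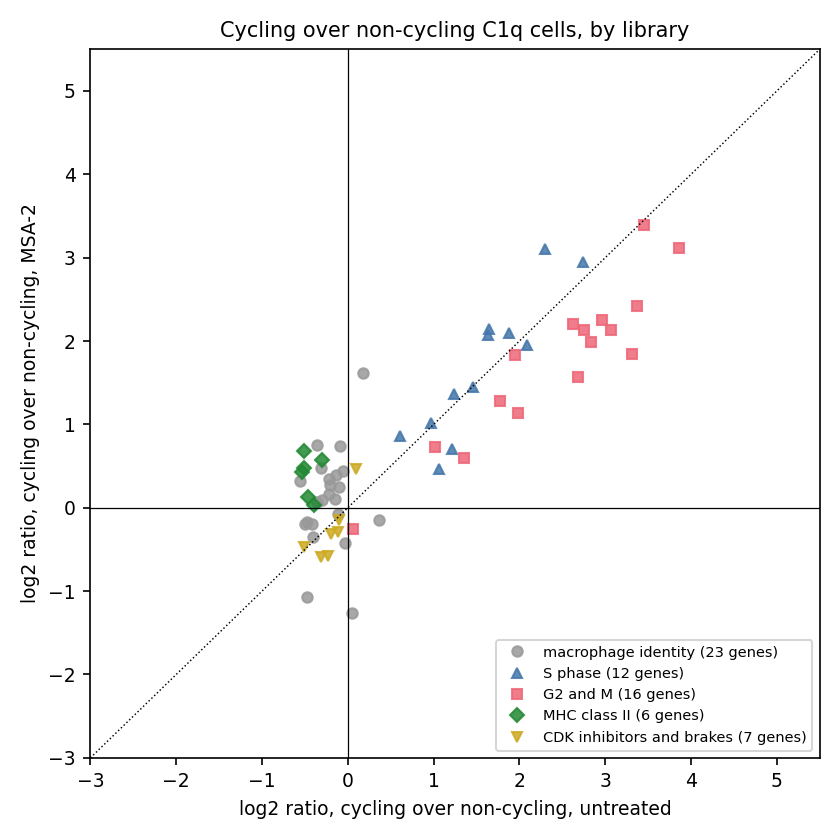
Log2 ratio of cycling over non-cycling C1q cells in the untreated (x axis) and MSA-2 library (y axis), where each point is a gene tested in both and the dotted diagonal marks equal ratios. G2 and M genes had medians of 2.96 and 1.92 and MHC class II genes -0.49 and 0.45.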

How the data were processed

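Single-cell RNA was measured in 2 libraries, 1 per group, on the 10x 3′ platform. The values the authors deposited are raw counts of UMIs for each gene in each barcode and were not normalized. The file header names Cell Ranger 7.0.1, while the processing notes name Cell Ranger 7.0.0, Seurat 4.3.0 and build mm10. The published methods give other versions of both programs. Removal of doublets and the kind of sort before loading are not given in the sources used here.

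Cells and intervals were computed in Python 3.11.15 with scipy 1.17.1. Scrublet in scanpy 1.11.5 scored the kept cells of each library at expected rates of 11.2% and 11.2%, with score thresholds of 0.349 and 0.361. Reference tumor cells also had no Ptprc, Cd3 or Pecam1 UMI and under 0.1% collagen UMIs. Monocyte-marked cells had at least 2 UMIs of Ly6c2 and 2 of Ccr2, F13a1 and Plac8, and neutrophil-marked cells at least 3 of Retnlg, Csf3r and Cxcr2, all with under 0.1% C1q UMIs. Both kinds also had neither tumor markers nor a Scrublet call. Intervals are Clopper-Pearson for shares and conditional binomial for ratios, with thinned averages entered as counts. With 1 library per group no test between groups was made.

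Genes named are those of the rule, genes of the 20 lists, the most abundant first, and the 10 highest and 10 lowest by ratio in each comparison. Less abundant list genes were chosen after their values were seen. Members and lists were chosen with earlier results of these data known. The computations were checked on simulated data. Alternatives covered doublets, tumor-marker level, cell filter, C1q and cycling limits, thinning, equal weight per cell, low-count filter, added CPM and TMM factors of edgeR 4.0.16 in R 4.3.3.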

Additional observations from a re-analysis of the deposited data

Results flagged for a closer look

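The list of MHC class II genes lay on opposite sides of equality in the libraries when cycling C1q cells were compared with non-cycling ones, both without tumor markers or Scrublet calls. Its median log2 ratio of cycling over non-cycling was -0.49 in the untreated library and 0.45 in the MSA-2 library, over 6 tested genes in each. The difference between the libraries was not tested, since each group is 1 library. Over all cells of the rule the medians were -1.13 and -1.19, on the same side. Other values moved with it in the MSA-2 library, and their part was not tested. There the median C1q share of UMIs was 1.42% in cycling and 0.858% in non-cycling cells, against 1.57% and 1.55% in the untreated library. The 12 monocyte genes, none at 0 and led by Plac8 in the MSA-2 and Ms4a4c in the untreated library, summed to 2125 and 3201 CPM in MSA-2 and 980.2 and 1264 CPM in untreated cycling and non-cycling cells. The 10 neutrophil genes summed to 502 and 1982 CPM in MSA-2 cells, led by S100a9 with Ly6g at 0 in the cycling ones, and to 64.5 and 98.2 CPM in untreated cells, led by Csf3r.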

How the results depend on the processing

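Of 210 values under 19 alternative settings, 149 kept their size or their side of 2-fold, and 4 log2 values changed sign. For each value that moved, the cause was not tested. The cycling share of C1q cells (12.98% untreated, 7.72% MSA-2, log2 ratio -0.75) became 10.2%, 4.90% and -1.06 without Scrublet calls, 10.4%, 4.24% and -1.29 without tumor-marker cells, 10.3%, 4.20% and -1.30 without both, 9.98%, 3.36% and -1.57 at a tumor-marker level of 10%, 10.5%, 4.75% and -1.15 at 50%, 11.8%, 5.63% and -1.07 with C1q at 0.5%, 8.63%, 4.18% and -1.05 with at least 5 cycling UMIs, and 6.20%, 2.89% and -1.10 at 3000 UMIs. With a filter of 1000 genes and 10% mitochondrial UMIs the untreated share was 14.3%. The ratio of the share of kept cells (-2.15) lay between -2.92 and -1.88 under these settings, and at -2.95 for the cells without tumor markers or a call over all kept cells. Tumor markers in cycling cells (39.2% and 64.8%) became 16.8% and 41.7% without Scrublet calls, 72.7% and 90.2% at a level of 10%, 29.1% and 46.7% at 50%, 17.8% and 38.5% with C1q at 0.5%, and 78.8% in MSA-2 cells with at least 5 cycling UMIs. Genes at least 2-fold higher (177) and lower (113) became 302 and 257 without tumor-marker cells, 282 and 254 without Scrublet calls as well, and 900 and 799 without the low-count filter, and the lower ones became 179 without Scrublet calls and 185 with C1q at 0.5%. The interferon median (1.12) was 0.99 without Scrublet calls. For cycling over non-cycling cells, the MHC class II medians (-1.13 and -1.19) became -0.62 and -0.22 without Scrublet calls, -0.50 and 0.42 without tumor-marker cells, -0.49 and 0.45 without both, -0.59 and -0.13 with C1q at 0.5%, and -0.66 and -0.42 with equal weight per cell. The identity median in the untreated library (-0.94) became -1.08 with at least 5 cycling UMIs, -1.02 against cells with 0 cycling UMIs and -1.13 with TMM, and shrank to -0.37 without Scrublet calls, -0.22 without tumor-marker cells or without both, -0.38 with C1q at 0.5% and -0.45 with equal weight per cell. In the MSA-2 library (-1.17) it became -0.40 without Scrublet calls, 0.15 without tumor-marker cells, 0.14 without both, -0.23 with C1q at 0.5% and -0.45 with equal weight per cell. Over all cells of the rule, S phase, G2 and M and MHC class II medians of MSA-2 over untreated, and S and G2 and M medians of cycling over non-cycling, kept their sign and their side of 2-fold under every alternative run. Without tumor markers or Scrublet calls, the G2 and M median of MSA-2 over untreated (-0.92) passed 2-fold with equal weight per cell (-1.09), the monocyte median (0.86) with equal weight per cell (1.07) and without the low-count filter (1.20), and the identity median (0.23) became -0.06 with equal weight per cell. In the untreated library 2 cycling over non-cycling medians became 0.06 and 0.12 without the low-count filter. They were those of inhibitors, G1 cyclins and exit genes (-0.10) and of apoptosis genes (-0.04). In the MSA-2 library the cycling over non-cycling median of the STING pathway (0.09) became -0.08 with TMM and -0.09 with equal weight per cell. For the same cells, genes higher and lower between libraries (282 and 254) became 1754 and 3248 without the low-count filter and 238 and 178 with 10 CPM added. Over all cells of the rule, leaving out cells with a Retnlg UMI, chosen after seeing the data, gave 187 higher genes (177 with them) and 97 lower ones (113). The medians of MSA-2 over untreated were then -0.54 for G2 and M (-0.31 with them), -0.0042 for S phase (-0.13), 1.08 for interferon-stimulated (1.12) and -3.15 for MHC class II genes (-3.02). The MSA-2 cells without tumor markers or a call, 42 with 300664 UMIs, limit the precision of every ratio that uses them.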
